A study of Mus musculus with 6 samples.

Results

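Transcripts of 10 genes that carry fatty acids into adipocytes and bind them there were followed in inguinal white adipose tissue, a fat pad under the skin of the groin. The genes were Lpl, Gpihbp1, Angptl4, Cd36, Fabp3, Fabp4, Fabp5, Slc27a1, Slc27a2 and Slc27a4, picked by symbol, and all 10 were found among the 21900 distinct symbols of the deposited table. The tissue came from C57BL/6 mice aged 2 months on a chow diet, kept at 22 °C and then moved to 4 °C for 7 days. All libraries share this cold exposure, so no value below compares cold with warmth. The 3 control libraries are labelled Foxp4fl/fl and the 3 knockout libraries Foxp4AdipoQΔ/Δ, a deletion of the forkhead transcription factor gene Foxp4 with a Cre recombinase under the promoter of Adipoq, which is active in mature adipocytes. The labels do not say whether the controls carried the Cre, so the driver and the loss of Foxp4 cannot be told apart. They also do not say whether each sample was 1 mouse or a pool, so p-values reflect the spread of these 6 samples alone, which may be technical.

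Triglyceride in the blood is split at the capillary wall by lipoprotein lipase (Lpl), which the adipocyte makes and which the endothelial protein Gpihbp1 carries across and anchors, while Angptl4 inactivates the enzyme. The fatty acids released enter through the membrane protein Cd36 and the transport proteins of the Slc27 family, which also couple fatty acids to coenzyme A. Inside the cell they are held in solution by small fatty acid binding proteins: Fabp4 is the main form of fat cells, Fabp3 that of heart, skeletal muscle and brown fat, and Fabp5 that of epidermis, also made by fat cells, endothelium and macrophages. Thermogenic fat is a large consumer of such fatty acids in the cold.

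Values are FPKM, the reads of a gene per kilobase of its exons, scaled to the size of the library. The deposited values were scaled to totals of 13280220 to 16118694 reads per library, and 13134992 to 15960483 reads were recovered in genes. These totals need not be all reads sequenced. In a library, 10405 to 10902 genes reached 1 FPKM. Foxp4 stood at 5.76, 4.01 and 4.62 FPKM across controls, against 1.92, 1.71 and 1.64 FPKM across knockouts, without overlap. Adipocyte markers were plentiful in every library, with Adipoq at a mean of 1213 FPKM across controls, against 872 FPKM across knockouts. Of the 10787 genes that reached a mean of 1 FPKM in either group, 1 passed an adjusted p of 0.05 in limma (0.00927%), and it was not among the 10 genes. With an unadjusted p under 0.05, 6.98% of all genes tested were higher and 17.1% lower in the knockouts, a split that became 1312 higher and 1120 lower after median-of-ratios scaling. The median of all genes tested was a log2 fold change of -0.082.

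In the knockouts, 3 of the 10 genes had higher values at an unadjusted p of 0.05 in limma, namely Fabp5, Fabp3 and Slc27a2. None of the 10 was lower, and 0 passed when adjusted over all genes, in limma on log2(FPKM + 1) as well as in limma-voom on recovered reads. Slc27a1 had the lowest fold change of the 10, and the other 6 genes (Lpl, Gpihbp1, Angptl4, Cd36, Fabp4 and Slc27a4) lay within 0.1 of 0 on the log2 scale. Fabp5 and Fabp3 were the 2 genes whose knockout libraries all lay above the controls, against 8.48% of all genes tested. None of the 10 lay wholly below, against 22.7% of all genes, and groups did not overlap in either direction for 31.2% of all genes. The median log2 fold change of the 10 genes was 0.056.

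Sequence before RefSeq transcript starts was at hand for 5 of the 10 genes, on GRCm38.p6, the assembly also called mm10. Apart from that of Slc27a4, these starts are not those of the GENCODE gene positions given below. Only the window of Slc27a4 and the first of Slc27a1 lie wholly before the GENCODE gene, and that of Slc27a2 lies inside an annotated exon of the gene. In the 250 bases before each RefSeq start, 2 short motifs were looked for on both strands, both chosen after the windows had been seen: TGTTTNC, a core bound by forkhead factors as a family, and AGGTCA, the half-site of nuclear receptors such as PPARs. Of 32851 such windows over the genome, 17.8% held the forkhead core and 14.0% the half-site. Slc27a1, the gene with lower knockout means, is shown by the first of its 3 windows, and Slc27a2, with higher knockout means, by the stretch between its matches, 201 to 179 bases before the RefSeq start and inside the GENCODE exon. Capitals mark matches to the forkhead core or to its reverse complement.
Slc27a1, chr8:71568621-71568870, plus strand: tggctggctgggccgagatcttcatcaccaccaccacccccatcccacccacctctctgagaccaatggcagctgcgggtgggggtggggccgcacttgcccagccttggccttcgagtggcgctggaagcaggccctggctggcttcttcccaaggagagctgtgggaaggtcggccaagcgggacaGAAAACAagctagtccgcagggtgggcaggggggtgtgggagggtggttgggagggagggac
Slc27a2, chr2:126552823-126552845, plus strand: TGTTTGCgctaagcgtTGTTTGC
Slc27a2 held 2 forkhead matches and 1 half-site match. Cd36 held 1 of each, 2 of the 3 Slc27a1 windows held 1 forkhead match, and the windows of Fabp3 and Slc27a4 held neither motif. A match of this length is only a description of the letters and shows no binding.

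Fabp4 was the most abundant of the 10 transcripts and Slc27a2 and Slc27a4 the least, in both groups. Mean FPKM in controls was 2539 for Fabp4, 902 for Cd36, 763 for Lpl, 335 for Fabp3, 239.6 for Slc27a1, 118.0 for Fabp5, 113.9 for Angptl4, 26.9 for Gpihbp1, 10.3 for Slc27a4 and 7.77 for Slc27a2. The library ranges overlapped between the neighbours Cd36 and Lpl, Fabp3 and Slc27a1, Fabp5 and Angptl4, and Slc27a4 and Slc27a2. In the knockouts, Fabp5 stood above Slc27a1 and Slc27a2 above Slc27a4, each pair with overlapping ranges.

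The order depends on the length by which reads are divided. The deposited values use all annotated exons merged, and for Fabp4 these include a retained-intron transcript that runs through nearly the whole gene, so the length used is 4489 bases where the principal spliced transcript has 896. Divided by the principal transcript, the control means were 12720 for Fabp4, 1943 for Lpl, 952 for Cd36, 500.1 for Slc27a1, 426 for Fabp5, 335 for Fabp3, 122 for Angptl4, 83.3 for Gpihbp1, 11.2 for Slc27a4 and 9.99 for Slc27a2. All reads counted over the merged exons were kept, so these means may be too high for the principal transcript. Cd36 has 5 principal transcripts and Slc27a1 has 2, and the longest was used. A shorter choice would raise their means. On this scale Lpl stood above Cd36 without overlap, and Fabp5 above Fabp3 in the controls. In the knockouts Fabp5 and Fabp3 had means of 691 and 673 with overlapping ranges. The choice of length shifts every library of a gene by the same factor and leaves differences between groups of a single gene unchanged.

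**Figure D1:**
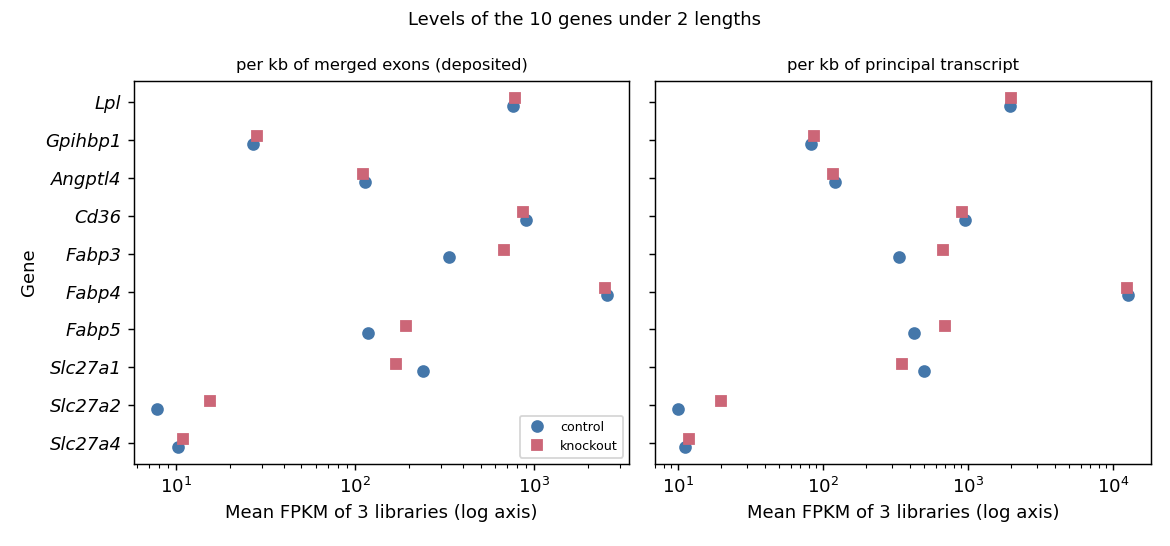
Mean FPKM of the 3 control libraries (blue circles) and the 3 knockout libraries (red squares) for each of the 10 genes, on log axes, per kilobase of merged exons as deposited (left) and per kilobase of the principal transcript (right). Fabp4 leads on both scales, at 2539 and 12720 FPKM in controls, while Lpl and Cd36 change places.

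Lipoprotein lipase and its partners had near-equal means in both groups. Lpl (chr8:68880491-68907448, plus strand) stood at 890.1, 646 and 754 FPKM across controls, against 852, 808 and 669 FPKM across knockouts. The knockouts all lay inside the range of the controls. Its log2 fold change was 0.030 (SE 0.15, 95% interval -0.33 to 0.39), from 98881 to 132033 reads per library.

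Gpihbp1 (chr15:75596628-75599481, plus strand), the endothelial anchor of the enzyme, stood at 25.3, 22.6 and 32.8 FPKM across controls, against 25.7, 29.2 and 29.9 FPKM across knockouts. The highest and the lowest library were both controls, and the log2 fold change was 0.082 (SE 0.14, 95% interval -0.25 to 0.41). The control with most Gpihbp1, replicate 3, also held most endothelial transcripts: 11 capillary endothelial markers summed to 256 FPKM there and to between 136 and 185 FPKM in the other 5 libraries. Set against the geometric mean of these markers, Gpihbp1 was 2.46, 2.29 and 1.79 in controls and 2.36, 2.31 and 2.72 in knockouts. The groups overlapped on this measure too, and all 11 markers were detected. At an unadjusted p of 0.05, 0 were higher and 1 lower (Tek), against 6.98% and 17.1% of all genes tested. The Tek call was lost without control replicate 3, knockout replicate 1 or knockout replicate 2, and without control replicate 3, 1 marker was higher. Whole-tissue RNA cannot tell fewer cells of a type from less RNA per cell, here or in any result below.

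Angptl4 (chr17:33773750-33781830, minus strand), the inhibitor induced by fasting and PPARs, stood at 86.0, 131.0 and 124.7 FPKM across controls, against 88.7, 111.5 and 130.7 FPKM across knockouts. Within each group its order was the reverse of that of Lpl: control 1 and knockout 1 had the most Lpl and the least Angptl4 of their groups. Angptl4 per 100 Lpl, both in FPKM, was 9.67, 20.3 and 16.5 in controls and 10.4, 13.8 and 19.5 in knockouts. The knockouts lay inside the range of the controls for both genes, and the fitted log2 fold change of Angptl4 was -0.040 (SE 0.20, 95% interval -0.51 to 0.43), turning to 0.045 after median-of-ratios scaling.

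Other genes that mature, modulate or take over from the lipase went both ways. Of 19 in a list for these steps 15 were tested, with 0 passing over all genes tested in limma. With an unadjusted p under 0.05, 2 were higher and 5 lower, against 6.98% and 17.1% of all genes tested. With a filter at 5 FPKM, 1 was higher and 4 lower. Angptl8, an insulin-induced relative of Angptl4 that modulates the lipase, stood at 42.1, 27.5 and 22.6 FPKM across controls, against 105.0, 55.9 and 44.4 FPKM across knockouts (log2 fold change 1.08, adjusted p = 0.13 in limma). Every knockout lay above every control, unlike for Angptl4, but the difference between the genes was not tested. Apoe, the apolipoprotein through which remnants are cleared, had 1235 ± 95.9 and 803 ± 136 FPKM (SD, n = 3), and its receptor Lrp1 had 34.5 ± 3.14 and 24.4 ± 3.01 FPKM, both below every control in each knockout library (adjusted p = 0.092 for each in limma). Pcsk5 and Pcsk6, proprotein convertases that cleave lipases and their inhibitors, had means of 1.59 and 0.89 FPKM and of 21.1 and 16.2 FPKM, also without overlap. Sel1l, which helps the lipase leave the endoplasmic reticulum, had 15.4 and 12.8 FPKM, and the endothelial lipase gene Lipg had 1.61 and 2.74 FPKM. Apoc1, another apolipoprotein, had 93.5 and 97.4 FPKM with overlap. Macrophages also make Apoe, and their markers were lower in the knockouts. At an unadjusted p of 0.05 in limma, 12 of 12 were lower, against 17.1% of all genes tested, and 0 passed when adjusted. The markers had a summed level of 610 to 817 FPKM across controls, against 388 to 502 FPKM across knockouts. The part of macrophages in the Apoe values was not tested. The list median was 0.035 and took the other sign when single libraries were left out, from -0.24 without control replicate 2 to 0.090 without knockout replicate 3.

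**Figure D2:**
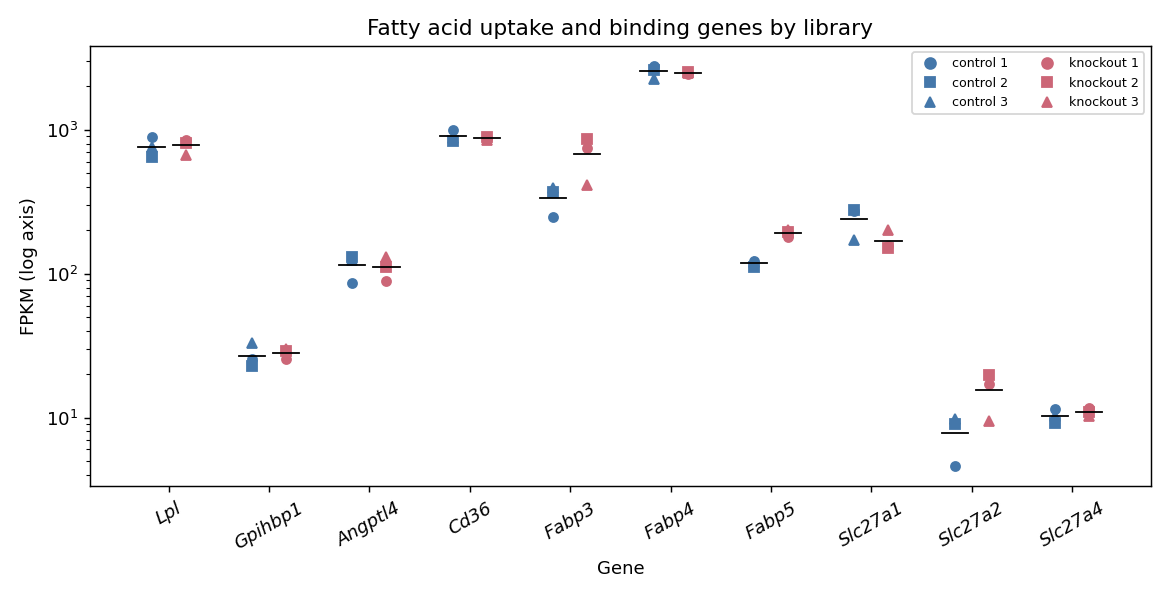
FPKM of the 10 genes on a log axis in each library, controls in blue and knockouts in red, with a symbol for each replicate and a bar at the mean of 3. Fabp5 and Fabp3 are the only genes of the 10 whose knockout points all lie above the control points.

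Cd36 (chr5:17781690-17888801, minus strand), the main membrane receptor for long-chain fatty acids in fat, had 998, 838 and 869 FPKM across controls, against 871, 883 and 852 FPKM across knockouts. The knockouts lay close together inside the range of the controls. Its log2 fold change was -0.050 (SE 0.11, 95% interval -0.30 to 0.20) and turned to 0.036 after median-of-ratios scaling. Cd36 per 100 Fabp4 was 36.0, 32.2 and 38.9 in controls and 35.5, 34.9 and 34.6 in knockouts.

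Of the 3 transport proteins of the Slc27 family, Slc27a2 had higher and Slc27a1 lower knockout means. Slc27a1 (chr8:71568882-71587302, plus strand), or FATP1, the insulin-responsive form of fat and muscle, stood at 272, 276 and 171 FPKM across controls, against 156, 151 and 199.8 FPKM across knockouts. Control 3 lay among the knockouts and knockout 3 above it, so the groups overlapped although the control mean was 1.42 times the knockout mean. The log2 fold change was -0.48 (SE 0.21, 95% interval -0.97 to 0.0045, unadjusted p = 0.052 and adjusted p = 0.21 in limma). Without control replicate 3 it was -0.71, with an unadjusted p of 0.0018 and an adjusted p of 0.0895 in limma, and without knockout replicate 3 it was -0.61, with an unadjusted p of 0.033. Leaving out any other single library gave -0.36 to -0.43, with an unadjusted p of 0.132 to 0.155, and median-of-ratios scaling gave -0.40, with a p of 0.12.

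Slc27a2 (chr2:126552407-126588243, plus strand), or FATP2, a very long-chain acyl-CoA synthetase rich in liver and kidney, stood at 4.58, 9.01 and 9.72 FPKM across controls, against 17.0, 19.9 and 9.47 FPKM across knockouts. Knockouts 1 and 2 lay well above every control, and knockout 3 fell between controls 2 and 3. The knockout mean of 15.4 ± 5.37 FPKM was 1.99 times the control mean of 7.77 ± 2.79 FPKM (SD, n = 3), from 242 to 990 reads per library. The log2 fold change was 0.91 (SE 0.32, unadjusted p = 0.026 and adjusted p = 0.16 in limma), and the unadjusted p exceeded 0.05 without control replicate 1 (0.0745), without knockout replicate 1 (0.0765) or without knockout replicate 2 (0.0915). A non-coding gene on the opposite strand, Gm26697, shares 419 exon bases with Slc27a2, and no strand setting of the counting is given, so reads of the 2 genes may not have been kept apart.

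Slc27a4 (chr2:29802634-29817522, plus strand), or FATP4, had 11.4, 9.10 and 10.3 FPKM across controls, against 11.7, 10.9 and 10.3 FPKM across knockouts, with a log2 fold change of 0.090 (SE 0.098, 95% interval -0.14 to 0.32). It was the steadiest of the family. Slc27a1 made up 94.4, 93.8 and 89.5% of the summed FPKM of the 3 Slc27 genes in controls and 84.5, 83.0 and 91.0% in knockouts. The share was lowest in knockouts 1 and 2, where Slc27a2 was highest, and knockout 3 lay within the control range.

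The fatty acid binding proteins differed among themselves. Fabp4 (chr3:10204088-10208576, minus strand) stood at 2773, 2606 and 2238 FPKM across controls, against 2454, 2531 and 2464 FPKM across knockouts. The knockouts again lay inside the wider control range, with a log2 fold change of -0.027 (SE 0.13, 95% interval -0.32 to 0.27), or 0.059 after median-of-ratios scaling. At 150890 to 175338 reads per library, counting error is negligible beside the spread between libraries.

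Fabp5 (chr3:10012548-10016607, plus strand), which lies near Fabp4 on chromosome 3, stood at 122.6, 110.4 and 121 FPKM across controls, against 179, 193 and 201 FPKM across knockouts. All 3 knockouts lay well above all 3 controls, and libraries of a group lay close together. The knockout mean of 191 ± 10.9 FPKM was 1.62 times the control mean of 118.0 ± 6.62 FPKM (SD, n = 3). The fitted log2 fold change reached 0.69 (SE 0.087, 95% interval 0.49 to 0.90). Its unadjusted p of 8.5e-05 in limma ranked 11 among the 10787 genes tested. The adjusted p of 0.070 in limma missed the threshold of 0.05, and over the 13 alternatives it ranged from 0.055 to 0.29. Fabp5 per 100 Fabp4, a ratio within each library that no scaling can move, was 4.42, 4.24 and 5.41 in controls and 7.31, 7.63 and 8.15 in knockouts, without overlap.

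Macrophages, endothelium and keratinocytes also make Fabp5. Macrophage markers were lower, as given above, and the summed endothelial markers overlapped, at 136 to 256 FPKM across controls, against 144 to 185 FPKM across knockouts. Keratinocyte and other epithelial markers summed to at most 3.78 FPKM in any library, with Krt14 listed at 0 in all 6. The part of these cells in the Fabp5 values was not tested. Of Fabp5, 5 processed pseudogenes resemble the spliced transcript at 93.6% identity or more over 336 to 409 bases, and 1 resembles Fabp3 at 99.3% over 402 bases. Shorter stretches also match elsewhere, of up to 227 bases in 8 other genes for Lpl and of up to 181 bases in 219 other genes for Slc27a1. Reads lost to or gained from such matches are unknown, and the levels of these 4 genes carry that uncertainty.

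Fabp3 (chr4:130308595-130315463, plus strand) stood at 248, 368 and 391 FPKM across controls, against 741, 866 and 411 FPKM across knockouts. Knockouts 1 and 2 were far above the controls, while knockout 3 lay just above control 3. The knockout mean of 673 ± 235 FPKM was 2.01 times the control mean of 335 ± 76.6 FPKM (SD, n = 3). Its log2 fold change was 0.96 (SE 0.30, 95% interval 0.26 to 1.67, unadjusted p = 0.014 and adjusted p = 0.13 in limma), and without knockout replicate 2 it was 0.74 with an unadjusted p of 0.052. Of the summed FPKM of Fabp3, Fabp4 and Fabp5, Fabp3 made up 7.89, 11.9 and 14.2% in controls and 22.0, 24.1 and 13.4% in knockouts, so that by share knockout 3 fell below control 3. Per principal transcript the shares were 1.70 to 3.24% in controls and 3.05 to 6.08% in knockouts. Zcchc17 and Gm10570 on the opposite strand share 81 and 80 exon bases with Fabp3, and Zcchc17 had a mean of 4.68 FPKM across controls, against 4.74 FPKM across knockouts.

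**Figure D3:**
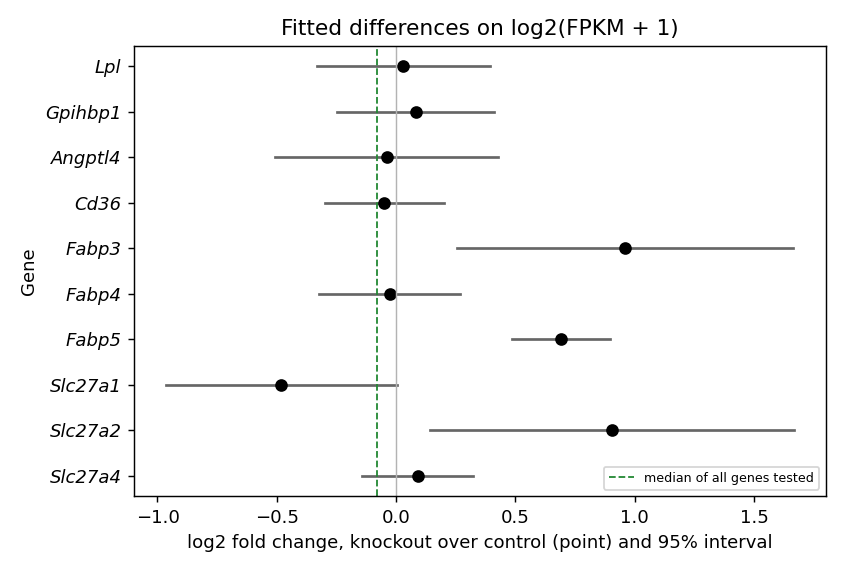
Fitted log2 fold change of each of the 10 genes, knockout over control (points), with its 95% interval from limma (lines), on the log2(FPKM + 1) scale. The dashed line marks the median of all genes tested, -0.082, and the intervals of Fabp3, Fabp5 and Slc27a2 lie above 0.

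Fabp3 is rich in skeletal muscle and in thermogenic fat, and markers of both varied between libraries. Muscle markers (11 genes, Tnnc2 at 0 in every library) summed to 18.8 to 76.8 FPKM across controls, against 31.7, 127 and 363 FPKM across knockouts 1, 2 and 3. At an unadjusted p of 0.05, 1 of the 10 tested was higher, against 6.98% of all genes tested, and 10 were without knockout replicate 1. That 1 was Mb, the myoglobin gene, which also was the gene called over all genes tested. Mb stood at 1.28, 0.92 and 0.87 FPKM across controls, against 9.11, 14.2 and 7.97 FPKM across knockouts, without overlap, whereas the groups overlapped for each of the other 9 tested. The part of muscle in the Fabp3 values was not tested.

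Thermogenic markers had higher means in the knockouts, as Fabp3 and Slc27a2 did. All 10 were detected, and 0 passed when adjusted over all genes tested in limma. With an unadjusted p under 0.05, 6 were higher and 0 lower, against 6.98% and 17.1% of all genes tested. In 5 every knockout lay above every control, against 8.48% of all genes tested. The list median was 0.79, or 0.48 without control replicate 1. Their summed level was 1550 to 3375 FPKM across controls, against 3461 to 5139 FPKM across knockouts. Ucp1, the uncoupling protein of thermogenic fat, stood at 799.9, 1333 and 2007 FPKM across controls, against 2898, 3009 and 1875 FPKM across knockouts. Ucp1 was the largest part of the summed level in every library. Its order from low to high was control 1, control 2, knockout 3, control 3, knockout 1 and knockout 2, which is the order of Slc27a2. Fabp3 had the same order except that knockout 3 stood just above control 3. Fabp5 did not share it, being highest in knockout 3, and Slc27a1 ran nearly opposite, with knockouts 1 and 2 lowest and controls 1 and 2 highest. No other thermogenic marker of the list had exactly the order of Ucp1, but some came near it. Elovl3 had the order of Fabp3, at 48.0, 73.0 and 107 FPKM across controls, against 169, 259 and 130 FPKM across knockouts. Dio2 had the order of Ucp1 with controls 1 and 2 exchanged. It stood at 2.36, 1.84 and 5.21 FPKM across controls, against 14.4, 16.1 and 5.15 FPKM across knockouts. Cidea stood at 306, 597 and 512 FPKM across controls, against 633, 756 and 541 FPKM across knockouts. Cox8b stood at 268, 593 and 506 FPKM across controls, against 544, 719 and 597 FPKM across knockouts, with knockout 1 the lowest of its group. These orders are a description of 6 libraries, and the part of thermogenic cells in the values of Fabp3 and Slc27a2 was not tested.

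**Figure D4:**
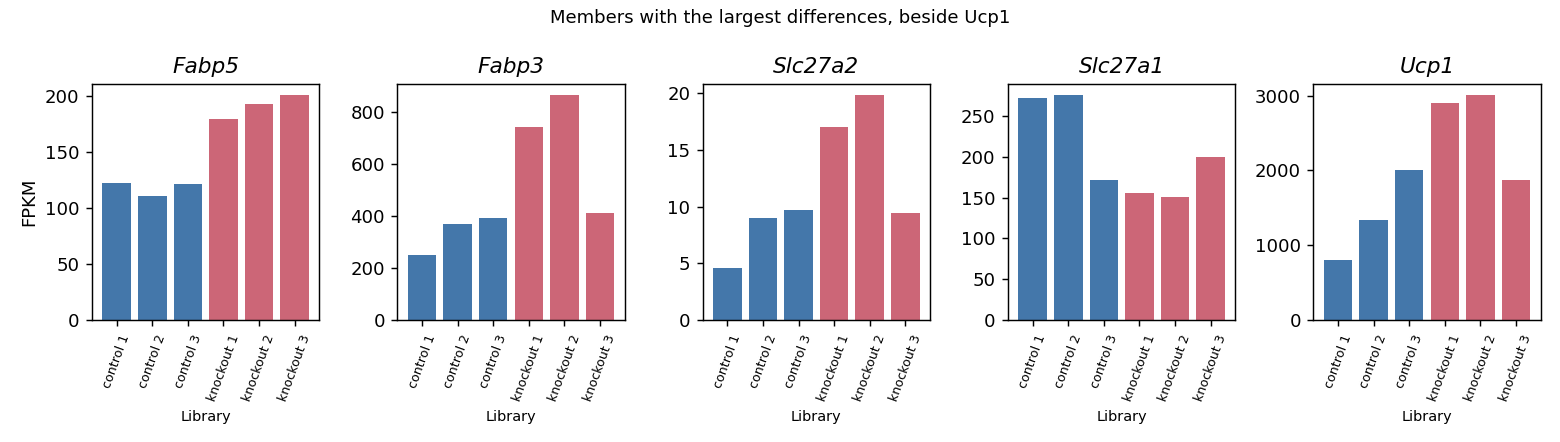
FPKM of Fabp5, Fabp3, Slc27a2, Slc27a1 and, for comparison, Ucp1 in each of the 6 libraries (bars, linear axes from 0), with controls in blue and knockouts in red. Knockout 3 is low in Fabp3 (411 FPKM), Slc27a2 (9.47 FPKM) and Ucp1 (1875 FPKM) and highest in Fabp5 (201 FPKM).

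The next step after uptake, coupling to coenzyme A, had its main gene at equal means. Acsl1, the chief long-chain acyl-CoA synthetase of adipocytes, had 336 ± 41.9 FPKM across controls, against 337 ± 10.2 FPKM across knockouts (SD, n = 3). Acsl5, which serves mitochondria and the endoplasmic reticulum, stood at 20.7, 36.9 and 36.1 FPKM across controls, against 52.2, 67.2 and 42.2 FPKM across knockouts, without overlap. Knockout 3 was again the lowest of its group. Of 12 synthetase genes 9 were tested. At an unadjusted p of 0.05, 3 were higher (Acsl4, Acsl5 and Acss2) and 1 lower (Acsm5), against 6.98% and 17.1% of all genes tested. Only 1 was higher without control replicate 1, knockout replicate 1 or knockout replicate 2, and 2 were without control replicate 3, when 3 were lower. Acss2, which activates acetate, had 52.9 and 73.4 FPKM with overlap, Acsl4 had 6.71 and 7.79 FPKM, and Acsm5, a medium-chain synthetase, had 3.81 and 1.56 FPKM. The list median was 0.19.

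Among acyl-CoA binding proteins and thioesterases, 14 of 16 genes were tested, with a median of 0.16. With an unadjusted p under 0.05, 5 were higher and 1 lower, against 6.98% and 17.1% of all genes tested. Dbi, the acyl-CoA binding protein itself, had 988 ± 19.6 and 1072 ± 66.4 FPKM (SD, n = 3). Acbd4, a relative, stood at 62.5, 63.7 and 58.4 FPKM across controls, against 80.8, 75.2 and 77.2 FPKM across knockouts, without overlap (log2 fold change 0.33, adjusted p = 0.088 in limma). Acot2, a mitochondrial thioesterase, had 36.9 and 50.1 FPKM, and Acot11, a thioesterase of brown fat induced by cold, had 26.6 and 44.9 FPKM. Acot4, of peroxisomes, went the other way with 5.21 and 3.12 FPKM. Only 2 of this list were higher without knockout replicate 2, and 3 were without control replicate 1, without control replicate 2 or with a filter at 5 FPKM.

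Other carriers and membrane partners of uptake had overlapping groups with 1 exception. Of 18 genes 10 were tested, with a median of -0.11. At an unadjusted p of 0.05, 0 were higher and 1 lower, against 6.98% and 17.1% of all genes tested. The lower 1 was Zdhhc4, a palmitoyl transferase acting on Cd36, at 11.8 and 10.2 FPKM. That call was lost without control replicate 1 or any single knockout replicate, and with voom or scaling by median of ratios or upper quartile 1 was higher and 0 lower. Of the other binding proteins Fabp1, Fabp2, Fabp6 and Fabp9 were listed at 0 in every library. The caveolar genes Cavin1 and Cavin2 had means of 205 and 186, and of 149 and 144 FPKM, in controls and knockouts. The family member Slc27a3 had 1.58 and 1.25 FPKM.

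Regulators of the uptake genes also had overlapping groups, with 1 exception. Of 14 tested, 1 was higher and 0 lower with an unadjusted p under 0.05, against 6.98% and 17.1% of all genes tested, and the median was -0.037. This was Ppara, the fatty acid receptor of oxidative tissue, at 10.1, 17.5 and 18.0 FPKM across controls, against 20.3, 25.9 and 22.3 FPKM across knockouts, without overlap (log2 fold change 0.59, adjusted p = 0.16 in limma). No regulator was higher without knockout replicate 2 or knockout replicate 3, and 2 were after median-of-ratios scaling, when the median was 0.046. Pparg, the master regulator of adipocytes that drives Lpl, Cd36 and Fabp4, had 72.8 ± 24.3 and 68.7 ± 8.67 FPKM (SD, n = 3). Cebpa had 336 and 297 FPKM and Srebf1 113.6 and 105.3 FPKM, both with overlap. Tcf15, an endothelial factor of fatty acid transport, had 10.9 and 7.68 FPKM with overlap. Over these 5 lists 19 genes in all had an unadjusted p under 0.05, and 11 without knockout replicate 2.

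Among the other marker lists, 4 of 10 mature adipocyte markers and 5 of 10 progenitor and fibroblast markers had lower values with an unadjusted p under 0.05, and 0 had higher ones. Of all genes tested, 17.1% were lower and 6.98% higher at that p. In both lists 0 markers passed when adjusted over all genes tested. The 4 adipocyte markers were Adipoq, Cfd, Cidec and Lgals12, and Adipoq had means of 1213 and 872 FPKM without overlap. The adipocyte count was 2 without a filter, and the progenitor count was 3 after median-of-ratios scaling, without control replicate 3 or without any single knockout replicate. The adipocyte markers summed to 11145 to 12018 FPKM across controls, against 7989 to 9070 FPKM across knockouts, and the progenitor markers to 496 to 1158 and 467 to 599 FPKM. The adipsin gene Cfd, at 6162 and 3999.9 FPKM, made up most of the difference in the adipocyte sum. The groups overlapped for 6 of the 10 adipocyte markers, among them Pnpla2, the gene of the main triglyceride lipase, at 1191 and 1058 FPKM, and Retn, at 354 and 409.6 FPKM. Lymphocyte markers summed to at most 4.84 FPKM in any library.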

How the data were processed

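Messenger RNA of 6 samples of inguinal fat was sequenced after stranded library preparation, per the labels' protocols. Reads were handled with cutadapt, HISAT2 and HTSeq on mm10, per the submitters' processing notes. Tool versions, the annotation and the strand setting were not given in the sources used here. The authors deposited FPKM per gene in a table of 21936 rows. Where a symbol recurred, the entry with the higher mean was kept, which removed 36. The unit was read from the values: FPKM times merged exon length (GENCODE M21) gave whole reads (tolerance 0.05) in 97.9 to 98.1% of entries worth 50 reads or fewer, and for 60 of 60 values of the 10 genes.

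Genes whose mean reached 1 FPKM in at least one group were tested in limma (version 3.58.1, R 4.3.3) on log2(FPKM + 1) with a mean-variance trend, genotype as the only term and Benjamini-Hochberg adjustment over all genes tested. Fold changes on this scale understate those of low genes. The design had foreseen FPKM. The fit was run on simulated data with independent noise, where the only check was that built-in mean fold changes were recovered. No error rate or power is given here. The 10 genes and all lists (5 of the pathway, 8 of cell types) were chosen with earlier results of these data known. Text genes were the 10 members, Foxp4, per pathway list up to 5 with the smallest p and 3 with the highest mean, and per marker list up to 3 with the highest mean. Sel1l, Tek, Mb, Retn, Elovl3, Dio2, Cidec, Lgals12, genes listed at 0 and overlapping genes were named after their values were seen. Near-identical transcripts were sought with BLAST+ 2.17.0 at 90% identity over at least 150 bases. Alternatives were a pseudocount of 0.1, no filter, a filter at 5 FPKM, median-of-ratios and upper-quartile scaling, limma-voom on recovered reads, the replicate number as a block, and leaving out each library. Principal transcript lengths were added after the data were seen. No protein sequences were used here.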

Additional observations from a re-analysis of the deposited data

How the results depend on the processing

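For the 10 genes, no alternative brought an adjusted p under 0.05. Fabp3, Fabp5, Slc27a1, Slc27a2 and Slc27a4 kept their direction under all 13 alternatives. The direction of genes near 0 turned: after scaling by median of ratios, by upper quartile and with voom the log2 fold change was 0.045, 0.029 and 0.047 for Angptl4, 0.036, 0.020 and 0.034 for Cd36, and 0.059, 0.043 and 0.056 for Fabp4. With 1 library left out, it ranged from -0.084 to 0.15 for Lpl, -0.030 to 0.23 for Gpihbp1, -0.23 to 0.11 for Angptl4, -0.10 to 0.025 for Cd36, -0.11 to 0.040 for Fabp4, 0.64 to 0.74 for Fabp5, 0.74 to 1.28 for Fabp3, 0.61 to 1.20 for Slc27a2, -0.71 to -0.36 for Slc27a1 and 0.014 to 0.16 for Slc27a4. The number of the 10 at an unadjusted p of 0.05 ranged from 1 (without knockout replicate 2) to 4, and that over the 5 pathway lists from 11 to 23.

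Over all genes, 2 passed an adjusted p of 0.05 with a filter at 5 FPKM, 0 without a filter, 0 with voom and 0 to 5 with 1 library left out. Genes higher at an unadjusted p of 0.05 numbered 1312 under median-of-ratios scaling, 1185 under upper-quartile scaling and 1273 with voom, and 401 to 896 with 1 library left out. Those lower numbered 1038 with the filter at 5 FPKM, 1120 after median-of-ratios scaling, 1116 in voom, and 1094 to 2046 with 1 library left out. The median-of-ratios factors were 1.026, 0.9941 and 1.07 in controls and 0.9905, 0.9695 and 0.9511 in knockouts. Dividing by them raised knockout values relative to control values. The filter at 5 FPKM left fewer genes to test. Why the factors differ between the groups was not tested.

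With the replicate number as a block 0 genes passed, and Fabp5 had an adjusted p of 0.13 in limma. With it 1 synthetase gene was higher and 0 of the other carriers were lower. Same-numbered libraries had correlations of 0.065, 0.027 and -0.25 in their deviations from the group means. Libraries with different numbers had -0.23 to 0.18. With 3 libraries per group, these values cannot tell whether the numbers pair the samples. With principal transcript lengths the difference in Fabp3 share, knockout minus control, was 2.31 percentage points instead of 8.48, and that in Fabp5 per 100 Fabp4 was 2.17 instead of 3.01. Slc27a2 had the fewest reads of the 10 genes, down to 242 in a library.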
